A study of Mus musculus with 65 samples.

Results

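The 56 single neurons described here were split by their level of Cartpt, the gene of the cocaine- and amphetamine-regulated transcript (CART) peptide. They came from 65 neurons of the brainstem's nucleus of the solitary tract (NTS), where visceral signals arrive, in male mice of mixed strain that carried Hsd11b2-Cre and the Ai9 reporter, so that cells in which Cre had acted made tdTomato. The tdTomato+ cells were picked by hand and sequenced with Smart-Seq2, which copies whole transcripts of a single cell. The mice ate standard chow (33 of the 56 cells) or a low-sodium diet (23 of the 56 cells). A cell entered when its scaled read counts (CPM), summed over all listed genes, came to no more than 1200000, which left out 9 low-sodium cells. Cells were grouped by their own Cartpt level, above the median of the 56 cells (28 Cartpt-high cells) or at or below it (28 Cartpt-low cells). The labels tie no cell to an animal, so a diet counts as 1 sample and its cells do not replicate it. Cre also marks cells that used Hsd11b2 only in the past. The protocol label names Arc-ME, whereas the tissue label names the NTS.

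HSD2 neurons take their name from the enzyme made by Hsd11b2, which inactivates corticosterone and thereby lets aldosterone reach the mineralocorticoid receptor. They are glutamatergic neurons known for driving sodium appetite. CART is made as a precursor, cut by prohormone convertases, packed into dense-core granules and released with other transmitters, and in the NTS it is known from neurons that handle visceral signals. Transcription of Cartpt is known to respond to cAMP signalling through the factor CREB, which binds a cAMP response element (CRE).

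The Cartpt promoter is shown because the gene defines the comparison and its window holds a full CRE. Cartpt is a protein-coding gene on the minus strand at chr13:99898489-99901091 (GRCm38, GENCODE), and the 250 bases before the RefSeq start site are chr13:99900684-99900933 on the minus strand (GRCm38.p6, RefSeq). The GENCODE gene reaches further upstream than this window. In the sequence below, written 5′ to 3′, capitals mark the CRE letters TGACGTCA, which read the same on both strands and begin 112 bases before the start site.
Cartpt promoter: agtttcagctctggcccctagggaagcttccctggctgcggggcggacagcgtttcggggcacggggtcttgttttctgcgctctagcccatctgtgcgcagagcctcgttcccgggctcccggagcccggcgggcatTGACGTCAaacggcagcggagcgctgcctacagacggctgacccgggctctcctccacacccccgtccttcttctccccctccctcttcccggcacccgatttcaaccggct
The same letters occur in the promoter windows of 549 of 27025 genes in the RefSeq table (2.03%), counted over windows that run on past the start site. Among genes measured here with a window, 312 of 7769 held them (4.02%), and the median difference between Cartpt-high and Cartpt-low cells was -0.44 for these and -0.53 for the others. A match describes the letters and does not show a bound site.

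Cartpt was found in 53 of the 56 cells. Among Cartpt-high cells its level ran from 8.18 to 10.96 log2(CPM + 1), with a median of 9.06 and a mean of 9.38 ± 0.85 (SD over cells, n = 28). Among Cartpt-low cells it ran from 0 to 8.15, with a median of 7.22 and a mean of 6.00 ± 2.54 (SD, n = 28). On the linear scale the means were 797 CPM and 128 CPM. Cartpt was therefore present in nearly every cell, and the split parts strong from moderate or absent expression. The cells next to the limit of 8.17 were at 8.15 and 8.18, both from chow, so the split falls in a continuous run of values. The 3 cells at 0 were all from chow. Since the split used Cartpt, these values describe the groups and test nothing.

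Both diets were present on each side. Of 33 chow cells, 18 were Cartpt-high (54.5%, exact 95% interval 36.4 to 71.9%), and of 23 low-sodium cells, 10 were (43.5%, 23.2 to 65.5%), so the intervals overlap. The median Cartpt level was 9.75 in Cartpt-high low-sodium cells and 8.99 in Cartpt-high chow cells. In Cartpt-low cells the diets had medians of 7.17 (low-sodium) and 7.23 (chow). Each interval covers counting error over cells only.

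Reads per cell differed strongly between the groups, and this touches every result that follows. Summed over the listed genes, a Cartpt-high cell held between 50080 and 1936632 reads (median 370633) and a Cartpt-low cell between 225316 and 5321128 (median 1574980). The same order was found within chow (medians 292382 and 1437581) and within low sodium (404167 and 2444853). Over the 56 cells Cartpt had a Spearman rho of -0.64 with reads per cell, and within chow it was -0.65 and within low sodium -0.63. Thinning every cell to 50000 reads draws its reads in proportion, so each cell keeps Cartpt's share of its reads, apart from sampling error. The rho between the thinned Cartpt level and the original reads was -0.64. After thinning, 27 of the 28 Cartpt-high cells were above the new median. Thinning cannot undo a share that falls with depth, so neither value shows whether the split depends on depth. The Cartpt-high cells also had fewer detected genes, with a median of 7534 against 8639.5.

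**Figure D1:**
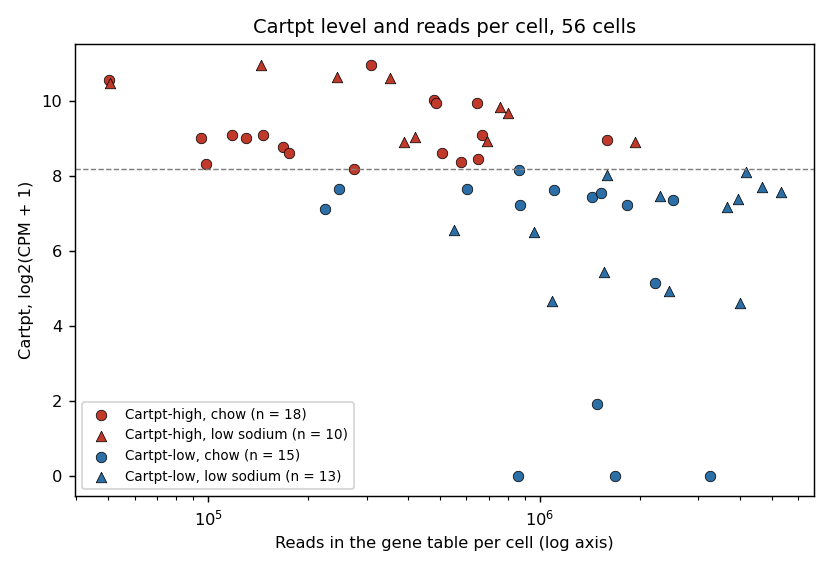
Cartpt level (y axis, log2(CPM + 1)) against reads in the gene table (x axis, log axis) for each of the 56 cells, with circles for chow, triangles for low sodium and a dashed line at the split of 8.17. Most Cartpt-high cells have fewer reads than most Cartpt-low cells in both diets, with a shared range from 225316 to 1936632 reads.

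Several abundant transcripts, short ones among them, took a smaller part of deep libraries than of shallow ones. Reads of Cartpt, whose longest annotated transcript has 1238 bases, went up by 0.42 on the log2 scale for each doubling of reads per cell (53 cells with reads). The value was 0.31 for Ubb, a ubiquitin gene, and 0.44 for Cox8a, a subunit of cytochrome c oxidase. The pattern was not confined to short transcripts, as the value for Lars2 (longest transcript 3894 bases) was 0.30. It was 1.03 for Slc17a6 and 0.87 for Hsd11b2, and the median over 1392 genes found in every cell was 1.00, the value of a gene that keeps its share. Ubb had 74 to 450 reads per cell while reads per cell ran from 50080 to 5321128. The level of the rRNA precursor Rn45s followed depth in the same way, with a rho of -0.97 with reads per cell and a mean of 12.93 ± 1.12 in Cartpt-high against 11.01 ± 1.06 in Cartpt-low cells (SD, n = 28 each). How far such a dependence on depth sets the Cartpt split itself was not tested. Differences are therefore also given from a fit with terms for the diet and for log10 reads per cell, chosen after the data were seen and called here the depth-adjusted difference. A lone value in parentheses after a gene's difference is the depth-adjusted one.

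**Figure D2:**
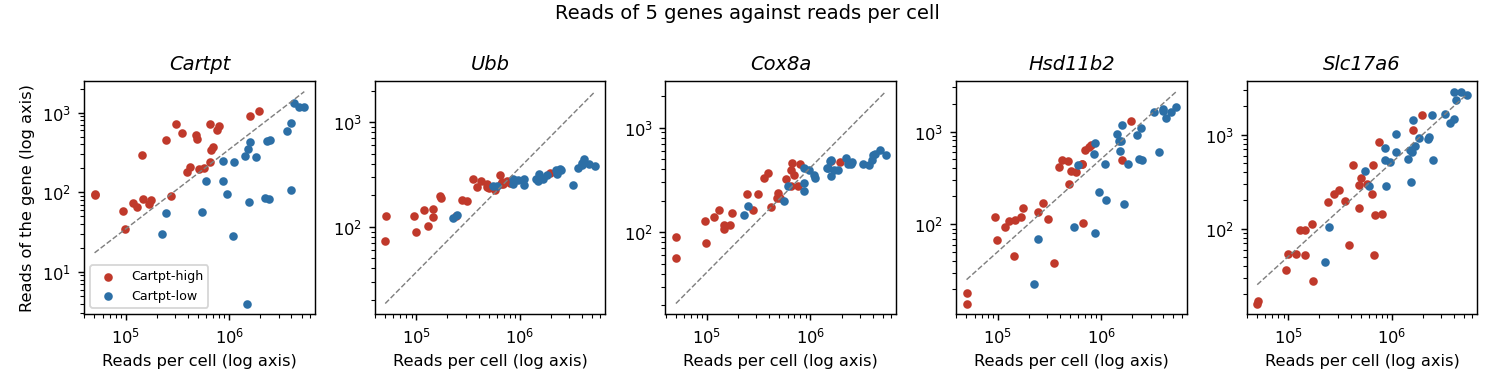
Reads of Cartpt, Ubb, Cox8a, Hsd11b2 and Slc17a6 (y axes, log axes) against reads per cell (x axes, log axes), with Cartpt-high cells in red, Cartpt-low cells in blue and a dashed line for a constant share of the reads. Ubb and Cox8a flatten in deep cells, with 0.31 and 0.44 log2 reads per doubling, whereas Slc17a6 follows the line with 1.03.

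Across the transcriptome most genes were lower in Cartpt-high cells. A difference here is the mean log2(CPM + 1) of Cartpt-high cells minus that of Cartpt-low cells, and 1 on this scale was taken as the size limit. Of 10205 genes found in at least 16 of the 56 cells, 121 were higher by 1 or more (1.19%) and 2446 were lower by 1 or more (24%). The median difference of all genes was -0.52, and 8006 genes lay below 0 (78.5%). These shares are the background for every list below. Within chow the median was -0.32 and within low sodium it was -0.78. Past the limit in the same direction in both diets were 27 genes higher (0.265%) and 1088 genes lower (10.7%), while 141 genes were higher in chow and lower in low sodium and 38 the reverse. With the depth adjustment the median of all genes moved to -0.22, with 549 genes higher (5.38%) and 1924 lower (18.9%). All these are differences of size between 2 sets of cells chosen by Cartpt, with no test.

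The median difference varied with the mean level of a gene and the length of its transcript. In the 5th of 10 level bins (means of 3.48 to 4.12) the median difference was -0.73, and in the highest bin (7.17 to 11.97) it was 0.06. Within the highest bin the quartile of genes with the shortest transcripts (499 to 1926 bases) had a median of 0.53 and that with the longest (4434 to 23495 bases) had -0.22. The depth-adjusted medians of these quartiles were 0.33 and -0.01. Of the 121 genes higher by 1 or more, 54 were in the highest level bin, which holds 1021 genes, and the others were spread over the lower bins.

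**Figure D3:**
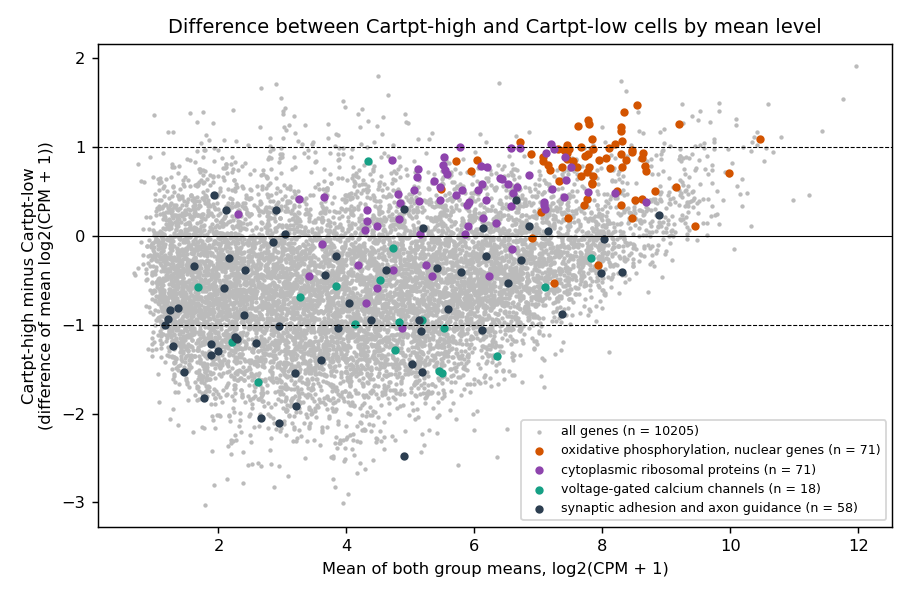
Difference between Cartpt-high and Cartpt-low cells (y axis, log2 scale) against the mean level of each of 10205 genes (x axis, log2(CPM + 1)), with 4 lists in colour and dashed lines at the limits of 1 and -1. The cloud lies below 0 at low and middle levels, the oxidative phosphorylation genes lie mostly above 0 and the adhesion genes and calcium channels mostly below it.

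Of 14 genes listed for HSD2 neuron identity, 12 had values here, and Foxp2 and Scnn1a had none. Each of the 12 was found in both groups, but some only in a minority of cells. Hsd11b2 was found in all 56 cells, at 6.75 to 10.3 (median 9.30) in Cartpt-high cells and 6.42 to 9.77 (median 8.30) in Cartpt-low cells. The ranges overlap, and 22 of 28 Cartpt-high cells lay above the Cartpt-low median. Its means were 9.10 ± 0.87 and 8.20 ± 0.90 (SD, n = 28 each), a difference of 0.91, with 0.97 in chow, 0.82 in low sodium and 1.11 after depth adjustment. The Hsd11b2 difference was above 0 under 22 of 22 alternative settings, from 0.37 to 1.13, all drawn from the same cells. Across cells the rho of Hsd11b2 with Cartpt was 0.35, and 0.19 holding reads per cell. Ddc, which encodes aromatic L-amino acid decarboxylase, ran from 7.27 to 10.5 in Cartpt-high cells and from 5.06 to 10.2 in Cartpt-low cells. Its means were 9.32 ± 0.64 and 8.59 ± 1.17, a difference of 0.73, with 0.57 after depth adjustment. The rho of Ddc with Cartpt was 0.32, and 0.13 holding reads per cell.

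Slc17a6, the vesicular glutamate transporter VGLUT2, had the same mean of 8.75 in both groups (SD 0.96 in Cartpt-high and 0.59 in Cartpt-low cells), and the chow cells differed by 0.11 and the low-sodium cells by -0.11, with 0.09 after depth adjustment. Nxph4, a neurexophilin, differed by 0.33 (0.36). Agtr1a, the receptor for angiotensin II, differed by -0.24, and by 0.85 after depth adjustment, so its sign turned with the adjustment. Nr3c1, the glucocorticoid receptor, was found in 19 cells of each group and differed by -0.33 (-0.40). Lmx1b and H6pd were found in 13 cells each, too few for the limit of 16.

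Nr3c2 and Sgk1 had lower means in Cartpt-high cells. Nr3c2, the gene of the mineralocorticoid receptor, ran from 0 to 7.23 (median 5.83) in Cartpt-high cells and from 3.84 to 7.89 (median 6.48) in Cartpt-low cells. It was found in 25 and in 28 cells, and 9 of 28 Cartpt-high cells lay above the Cartpt-low median. The Nr3c2 difference was -1.18, with -0.65 in chow, -1.90 in low sodium and -1.09 after depth adjustment. It lay below 0 under 22 of 22 alternative settings, but its size ran from -1.90 to -0.08. Across cells the Spearman rho of Nr3c2 with Cartpt was -0.13, and 0.03 holding reads per cell. Its level was thus at most weakly related to that of Cartpt from cell to cell. Sgk1, the kinase known in kidney cells as an early target of aldosterone, was found in 8 Cartpt-high cells (28.6%, exact 95% interval 13.2 to 48.7%) and 15 Cartpt-low cells (53.6%, 33.9 to 72.5%). The Sgk1 difference was -1.41, with -1.56 in chow, -1.50 in low sodium and -1.41 after depth adjustment. Prlr, the prolactin receptor, differed by -1.37 but by -0.06 after depth adjustment. Of the 10 identity genes that passed the limit on cells, 3 were lower by 1 or more (Nr3c2, Prlr and Sgk1) and none was higher, a share lower of 30.0% against 24% of all genes. The list median was -0.12 (0.08 after depth adjustment).

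**Figure D4:**
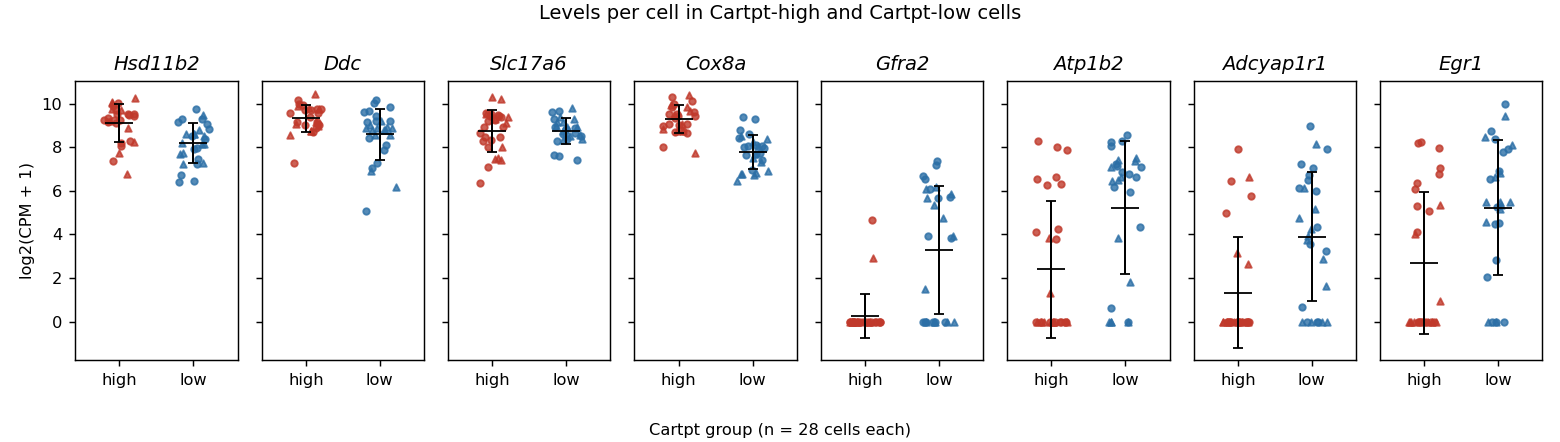
Level of 8 genes (y axes, log2(CPM + 1)) in each Cartpt-high cell (red) and Cartpt-low cell (blue), with circles for chow, triangles for low sodium, and bars for the mean and SD over 28 cells. Hsd11b2, Ddc and Slc17a6 are present in every cell of both groups, Cox8a is higher in most Cartpt-high cells, and Gfra2, Atp1b2, Adcyap1r1 and Egr1 are at 0 in most Cartpt-high cells.

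Other neuropeptide genes lay on both sides. Of 35 listed peptide and secreted cerebellin genes, 9 were found in at least 16 cells. Of these, 2 were higher and 2 lower by 1 or more (22.2% each, against 1.19% and 24% of all genes). The median was -0.70 (0.02 after depth adjustment). Gal, the precursor of galanin, was found in 21 Cartpt-high cells (75.0%, exact 95% interval 55.1 to 89.3%) and 17 Cartpt-low cells (60.7%, 40.6 to 78.5%). Its difference was 1.34, with 2.30 in chow, -0.11 in low sodium and 1.30 after depth adjustment, and the contrast between the diets was not tested. After thinning, Gal was found in 60.7% of Cartpt-high and 57.1% of Cartpt-low cells and differed by 0.70. Across cells its rho with Cartpt was 0.16, and 0.08 holding reads per cell. Pomc, the precursor of melanocortins, was found in 18 and in 12 cells and differed by 1.42, with 2.15 in chow, 0.36 in low sodium and 1.68 after depth adjustment. Pomc is low here, with a median of 3.63 in Cartpt-high cells, and after thinning it was found in 39.3% and 17.9% of cells. Cbln4, a cerebellin that organises synapses, was found in 7 and in 17 cells and differed by -1.94, with -2.06 in chow, -2.03 in low sodium and -1.71 after depth adjustment. Grp, the precursor of gastrin-releasing peptide, differed by -1.10, with -1.92 in chow, 0.12 in low sodium and -0.55 after depth adjustment.

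The machinery that packs and cuts peptides had a median near 0. Of 24 measured genes for granule cargo and prohormone processing, 1 was higher and 3 were lower by 1 or more (4.17% and 12.5%, against 1.19% and 24% of all genes), with a median of -0.22 (-0.13 after depth adjustment). Pcsk1n, which encodes proSAAS, an inhibitor of prohormone convertase 1, had means of 10.24 ± 0.77 in Cartpt-high and 8.83 ± 0.65 in Cartpt-low cells (SD, n = 28 each). Its difference of 1.4 came down to 0.47 after depth adjustment, and its rho with reads per cell was -0.86. Vgf, a granule protein gene, differed by -1.19 (-2.12) and Hid1, which serves granule formation, by -1.02 (-1.37). For Vgf the log2 ratio of mean CPM plus 1 was 0.70, the opposite sign.

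Among genes of transmitter synthesis, 4 of 20 listed were found in at least 16 cells. Dbh, which makes noradrenaline from dopamine, was found in 14 Cartpt-high and 12 Cartpt-low cells and differed by 1.26 (0.71 after depth adjustment). Slc18a2, the vesicular monoamine transporter, was found in 18 and 16 cells and differed by 0.10, with 1.74 in chow, -2.35 in low sodium and 0.86 after depth adjustment. Th, which makes the precursor of dopamine, was found in 1 and 4 cells, and 2 Cartpt-low cells held at least 3 catecholamine markers above 10 CPM.

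The genes furthest down in both diets were mostly at 0 in Cartpt-high cells. Gfra2, the co-receptor for the growth factor neurturin, was found in 2 Cartpt-high cells (7.14%, exact 95% interval 0.877 to 23.5%) and in 17 Cartpt-low cells (60.7%, 40.6 to 78.5%). It ran from 0 to 4.66 and from 0 to 7.37, with means of 0.27 ± 1.02 and 3.30 ± 2.93. The difference of -3.03 was -3.28 in chow, -2.73 in low sodium and -3.18 after depth adjustment. In the range of reads that both groups share (18 Cartpt-high and 17 Cartpt-low cells) the Gfra2 difference was -4.08. In that range the groups still differed in depth, with median reads of 541983 and 1089322.

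Brinp1, a neural inhibitor of the cell cycle, was found in 13 Cartpt-high and 25 Cartpt-low cells, with medians of 0 and 6.26, and differed by -2.90 (-3.40 after depth adjustment). Atp1b2, a beta subunit of the sodium pump found in neurons and astrocytes, was found in 12 and 23 cells, with medians of 0 and 6.64, and differed by -2.83 (-3.30 after depth adjustment). Smg9, a factor of nonsense-mediated decay, was found in 12 and 27 cells and differed by -3.01 (-2.18 after depth adjustment). Only 3 Cartpt-high cells lay above the Cartpt-low median for Brinp1 and for Atp1b2, and 5 did for Smg9. Without the 33 cells that held glial, vascular or ependymal markers the differences were -2.01 for Brinp1, -1.48 for Atp1b2 and -2.73 for Gfra2.

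The others among the 15 lowest were Trp53rka, a protein kinase, at -2.83 (-2.55), Csmd3, a synaptic membrane protein, at -2.78 (-2.40) and Asrgl1, an asparaginase, at -2.74 (-1.96). Zfp772, a zinc finger protein, at -2.74 (-2.83), Klhl13, an adaptor of a ubiquitin ligase, at -2.71 (-1.54) and Slc7a6, an amino acid transporter, at -2.67 (-1.90) came next. Sfxn5, a mitochondrial carrier, at -2.62 (-1.49), Dgkb, a diacylglycerol kinase, at -2.59 (-2.72), Tm7sf3, a membrane protein, at -2.59 (-2.54) and Ormdl1, a regulator of sphingolipid synthesis, at -2.58 (-1.51) completed them with 1 unnamed cDNA clone. These genes were chosen for their size, so their number and direction support nothing further.

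Genes of cAMP and CREB signalling were lower about as often as genes at large. Of 35 measured, none was higher and 10 were lower by 1 or more (28.6%, against 24% of all genes), and 27 lay below 0 (77.1%, against 78.5%), with a median of -0.74. After depth adjustment the median was -0.25, close to the -0.22 of all genes. Rapgef4, the cAMP-activated exchange factor EPAC2, differed by -2.31 (-1.87 after depth adjustment), with 15 Cartpt-high and 27 Cartpt-low cells holding it. Crtc3, a coactivator of CREB, differed by -2.16 (-1.87), and the phosphodiesterases Pde4d and Pde10a by -2.00 (-2.01) and -1.72 (-1.05). Adcyap1r1, the receptor for PACAP that signals through cAMP, is not among these 35 genes and is counted with the peptide and hormone receptors below. It was found in 7 Cartpt-high cells (25.0%, exact 95% interval 10.7 to 44.9%) and 21 Cartpt-low cells (75.0%, 55.1 to 89.3%). Its levels ran from 0 to 7.93 and from 0 to 8.98, and it differed by -2.55, with -3.16 in chow, -1.88 in low sodium and -3.19 after depth adjustment.

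Immediate early genes, which neurons switch on after activity and which also respond to dissociation, were not higher with Cartpt. Of 21 measured, none was higher and 8 were lower by 1 or more (38.1%, against 24% of all genes). Their median was -0.71, -0.64 after depth adjustment, and 0.05 without the 33 cells that held markers of other cell types. Against genes of the same level and length it was -0.11. Egr1, a zinc finger factor of this class, was found in 13 Cartpt-high and 23 Cartpt-low cells, with medians of 0 and 5.47. It differed by -2.53, with -1.41 in chow, -4.43 in low sodium and -3.13 after depth adjustment. Dusp1, a phosphatase of the MAP kinases, differed by -1.67, Atf3, a stress-induced factor, by -1.54 and Btg2 by -1.35, and the depth-adjusted values were -0.30, -0.38 and -1.25. The heat shock list, which also reads dissociation, had a median of -0.07 (0.17 after depth adjustment), with Hsf1, its master factor, at -2.17 (-1.93) and the abundant chaperone Hsp90ab1 at 1.11 (0.29).

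Among ion channels the calcium channel genes had the lowest median. Of 18 measured voltage-gated calcium channel genes, 7 were lower by 1 or more (38.9%, against 24% of all genes) and none was higher, and 17 lay below 0 (94.4%, against 78.5%), with a median of -0.96 (-0.77 after depth adjustment). Cacna1e and Cacna1b, the pore subunits of R-type and N-type channels, differed by -1.54 (-1.49) and -1.35 (-0.22). The auxiliary subunit Cacnb4 differed by -1.52 (-1.29) and Cacng2, a subunit also known as stargazin that escorts AMPA receptors, by -1.64 (-1.50). Set against genes of the same level and length, the calcium channel median was -0.20. The median lay below that of all genes under 22 of 22 settings.

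Of 44 potassium channel genes and subunits 13 were lower by 1 or more (29.5%, against 24% of all genes) and none was higher, and 38 lay below 0 (86.4%, against 78.5%), with a median of -0.66 before and after depth adjustment. Against genes of the same level and length the potassium channel median was -0.10, with 20 genes above 0 and 24 below. Dpp10, a subunit of A-type channels, was found in 7 and 20 cells and differed by -2.37 (-3.13 after depth adjustment). Kcnab1, a beta subunit, differed by -2.15 (-2.58) and Kcnma1, the calcium-activated BK channel, by -1.68 (-1.42). Among 15 sodium channel genes 3 were lower (20.0%, under the 24% of all genes) and the median was -0.39 (0.05 after depth adjustment), with Fgf13, a channel-binding protein, at -2.02 (-0.96) and Unc80, part of the leak channel complex, at -1.26 (-0.86). Of 16 HCN and TRP channel genes 4 were lower (25.0%, near the 24% of all genes), with Trpm7 at -1.60 (-0.63), and the median was -0.65 (-0.33 after depth adjustment).

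The share of receptor genes lower by 1 or more lay on either side of that of all genes. Of 19 glutamate receptor genes 2 were lower by 1 or more (10.5%, against 24% of all genes, with a median of -0.46 and -0.38 after depth adjustment), among them the metabotropic receptor Grm3 at -1.42 (-1.98). Of 18 GABA and glycine receptor genes 5 were lower (27.8%, median -0.83, -0.10 after depth adjustment), among them Gabra5 at -1.55 (-1.59) and Glra1 at -1.19 (-1.29). Of 13 peptide and hormone receptor genes 5 were lower (38.5%, median -0.75, -0.42 after depth adjustment). Against genes of the same level and length their median was -0.03. Adcyap1r1, given above, was the lowest of them at -2.55 (-3.19). Igf1r, the receptor for insulin-like growth factor, was at -1.36 (-0.42) and Oprl1, the nociceptin receptor, at -1.32 (-0.77). None of the 5 measured monoamine and acetylcholine receptor genes was past the limit.

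Genes of cell contact and genes of vesicle release are given side by side, and the contrast between them was not tested. Of 58 genes of synaptic adhesion and axon guidance 22 were lower by 1 or more (37.9%, against 24% of all genes) and none was higher, with a median of -0.82 (-0.54 after depth adjustment), and 47 lay below 0 (81.0%, against 78.5%). Cdh13, a cadherin held by a lipid anchor, differed by -2.48 (-0.92), the ephrin receptor Epha6 by -2.11 (-1.18), the semaphorin Sema6d by -2.05 (-2.25) and the teneurin Tenm4 by -1.92 (-1.57). Of 36 genes of synaptic vesicle release 1 was higher and 3 were lower (2.78% and 8.33%, against 1.19% and 24% of all genes). Their median was -0.07 (0.08 after depth adjustment). Rab3a, the vesicle GTPase, had means of 9.95 ± 0.37 and 8.93 ± 0.57, all 28 Cartpt-high cells lay above the Cartpt-low median, and the difference was 1.02 (0.67 after depth adjustment). Doc2b and Syt6, calcium sensors of release, differed by -1.71 (-1.86) and -1.36 (-1.35). The transcripts of the adhesion genes are long (median of the longest transcripts 6482.5 bases), and against genes of the same level and length their median was -0.20.

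Of 30 hindbrain transcription factors 2 were higher and 11 were lower by 1 or more (6.67% and 36.7%, against 1.19% and 24% of all genes). Their median was -0.39 (-0.45 after depth adjustment), and 0.05 against genes of the same level and length. Ebf1 differed by -1.83 (-2.11), Pbx3 by -1.64 (-1.89), Hoxb3, a factor of hindbrain segments, by -1.49 (-1.60) and Tshz2 by -1.46 (-1.20), and Tshz2 was found in 24 and 28 cells. Cholesterol synthesis had 11 of 25 genes lower by 1 or more (44.0%, against 24% of all genes) and none higher. Its median was -0.74 (-0.44 after depth adjustment), and -0.21 against genes of the same level and length. Cyp51, which removes a methyl group from lanosterol, differed by -1.88 (-1.09), Sc5d, a sterol desaturase, by -1.39 (-0.42) and Insig2, which holds the sterol sensor in the endoplasmic reticulum, by -1.28 (-0.24). Of 24 genes of the unfolded protein response and folding in the endoplasmic reticulum, which handles secreted peptides, none was higher and 4 were lower (16.7%, against 24% of all genes). Their median was -0.60 (-0.23 after depth adjustment), with the disulfide isomerase Pdia4 at -1.48 (-0.82). All 13 measured corticosteroid-induced genes lay below 0, as 78.5% of all genes did, and 3 were lower by 1 or more (23.1%, against 24% of all genes), with a median of -0.62. After depth adjustment 5 of the 13 lay above 0 and the median was -0.81. Tsc22d3, known as GILZ, differed by -1.05 (-0.98). The corticosteroid list shares Sgk1 and Dusp1 with lists above.

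Genes of oxidative phosphorylation lay mostly above 0, where 2199 of all 10205 genes lay. Of 71 nuclear genes of oxidative phosphorylation 68 lay above 0, 15 were higher by 1 or more (21.1%, against 1.19% of all genes) and none was lower, with a median of 0.85. Chow cells had a median of 0.55 and low-sodium cells one of 1.20, and the value for all cells came down to 0.39 after depth adjustment and to 0.41 against genes of the same level and length. These genes have short transcripts (median of the longest 1231 bases), and their reads went up by 0.73 per doubling of reads per cell (median over 70 genes found in every cell). Cox8a ran from 7.76 to 10.4 in Cartpt-high cells and from 6.46 to 9.39 in Cartpt-low cells, and 27 of 28 Cartpt-high cells lay above the Cartpt-low median. The difference was 1.48, with 1.15 in chow, 1.84 in low sodium and 0.33 after depth adjustment. Cox6a1, Cox5b and Cox4i1, further subunits of cytochrome c oxidase, differed by 1.4 (0.55), 1.31 (0.47) and 1.26 (0.31).

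Glycolysis had 16 of 19 genes above 0 and a median of 0.61 (0.48 after depth adjustment). Of the 19, 2 were higher and 1 lower by 1 or more (10.5% and 5.26%, against 1.19% and 24% of all genes). Aldoa, an aldolase, differed by 1.49 (0.46), Pkm, pyruvate kinase, by 1.00 (0.55), Eno1, enolase, by 1.00 (0.62) and Pfkl, the liver-type phosphofructokinase, by -1.66 (-1.36). Of 71 cytoplasmic ribosomal protein genes 60 lay above 0, but only 2 were higher and 1 lower by 1 or more (2.82% and 1.41%, against 1.19% and 24% of all genes), with a median of 0.44 (0.23 after depth adjustment and 0.63 against genes of the same level and length). Rplp1 differed by 1.04 (0.37) and Rps28 by 1.00 (0.49), and ribosomal protein genes have many near-identical processed copies, so their levels are uncertain. Of 8 pan-neuronal markers 6 lay above 0 and 1 (Tubb3) was higher by 1 or more (12.5%, against 1.19% of all genes). Their median was 0.85 (0.48 after depth adjustment). Tubb3, the neuronal tubulin, had all 28 Cartpt-high cells above the Cartpt-low median and differed by 1.29 (1.11 after depth adjustment), and the neurofilament gene Nefm by 0.87 (1.06 after depth adjustment). Snap25, of the release machinery, differed by 0.82 (0.40 after depth adjustment), whereas the RNA-binding protein gene Elavl4 differed by -0.01 (0.17) and Rbfox3 by -0.51 (-0.36).

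**Figure D5:**
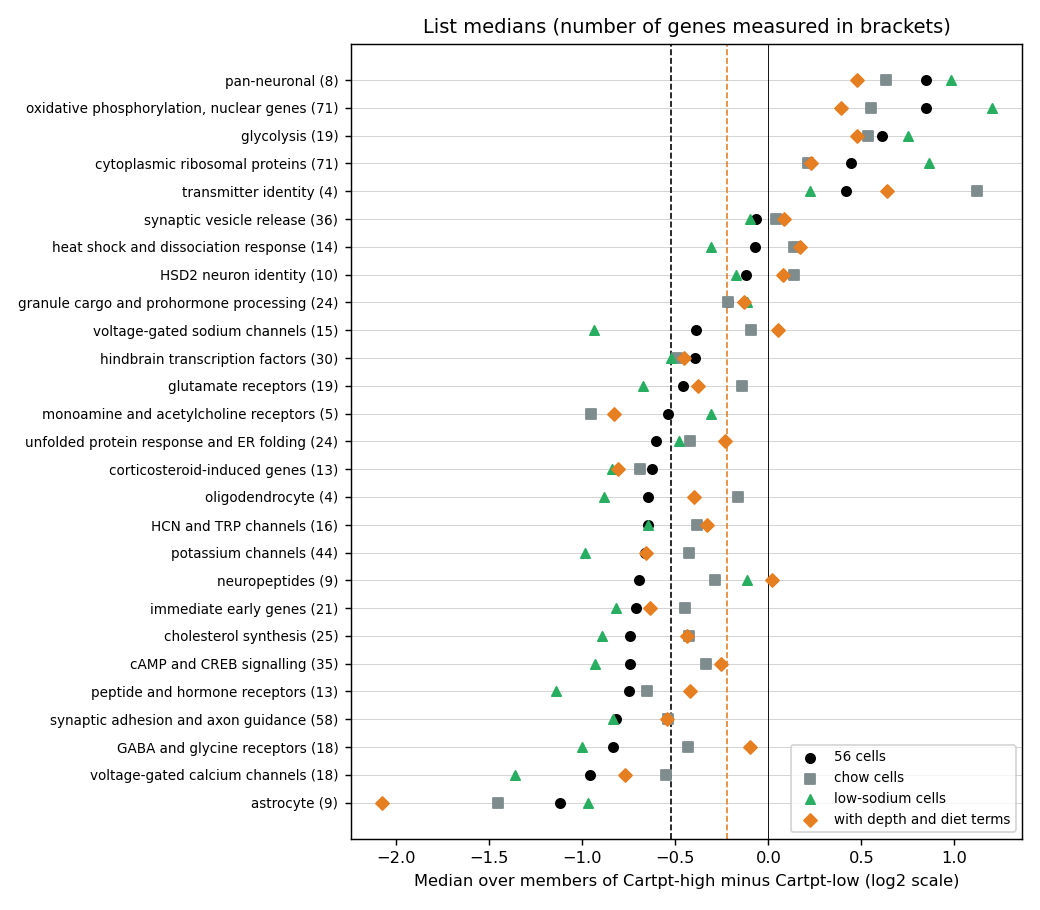
Median difference between Cartpt-high and Cartpt-low cells (x axis, log2 scale) for each gene or marker list with at least 4 measured genes (y axis), in all 56 cells, in each diet and with depth adjustment, beside dashed lines at the medians of all genes (-0.52, and -0.22 with depth adjustment). For all 56 cells, pan-neuronal, oxidative phosphorylation, glycolysis and ribosomal protein genes lie furthest to the right, and astrocyte markers and calcium channels furthest to the left. The 4 transmitter identity genes lie furthest to the right in chow (1.12) and with depth adjustment (0.64).

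The 15 genes furthest up in both diets held several whose levels follow depth closely. Rn45s differed by 1.92, Ubb by 1.75 and Lars2, a mitochondrial leucyl-tRNA synthetase, by 1.63, and after depth adjustment they differed by 0.04, 0.28 and 0.02. Tppp3, a tubulin-binding protein, differed by 1.5 (0.65 after depth adjustment), and Ndn, the imprinted gene necdin, by 1.41 (0.80). Sik2, a salt-inducible kinase that restrains CREB coactivators, was found in 20 Cartpt-high and 18 Cartpt-low cells and differed by 1.56 (1.46 after depth adjustment). Coch, the gene of cochlin, was found in 20 and 13 cells and differed by 1.45 (1.81), and Lrrc20, a leucine-rich repeat gene, was found in 19 and 15 cells and differed by 1.41 (1.56). Aldoa, Cox8a, Cox6a1 and Pcsk1n, given above, and 3 unnamed cDNA clones completed the 15.

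The genes whose levels ran most closely with Cartpt across the 56 cells were of the same abundant kind. The 10 highest Spearman rho were 0.71 to 0.74, led by Cox5b (0.74), Cox6a1 and Ngfrap1 (0.73 each), Tmsb10 and Tpi1 (0.72 each), followed by Cox6b1, Stmn3, Tppp3, Aldoa and Atpif1. They encode oxidase subunits, a neurotrophin receptor adaptor, an actin-binding thymosin, triosephosphate isomerase, a stathmin and the inhibitor of the ATP synthase. Holding reads per cell, their rho with Cartpt was 0.39 to 0.48. Their rho with reads per cell was -0.80 to -0.96. At the other end stood U2surp, a factor of the spliceosome, with a rho of -0.68 (-0.61 holding reads per cell), Diablo, an inhibitor of apoptosis inhibitors (-0.62), Lmbrd1, a lysosomal cobalamin transporter (-0.60), Vbp1, a prefoldin subunit (-0.57), and Spag9, a scaffold of JNK signalling (-0.56). The cells share their preparation, depth is unequal between them, and the correlations are given as descriptions only.

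Markers of other cell types were found in both groups and were lower on the Cartpt-high side for astrocytes. At least 3 astrocyte markers exceeded 10 CPM in 11 Cartpt-high and 14 Cartpt-low cells, and at least 3 oligodendrocyte markers did so in 11 and 12 cells. The 12 astrocyte markers summed to 0 to 5274 CPM per Cartpt-high cell (median 248) and to 31.1 to 6388 CPM per Cartpt-low cell (median 365). Of 9 measured astrocyte markers 5 were lower by 1 or more (55.6%, against 24% of all genes) and none was higher (median -1.12, -2.08 after depth adjustment), with the glutamate transporter gene Slc1a3 at -1.53 (-2.21), the water channel Aqp4 at -1.41 (-2.33) and Apoe at -1.38 (-2.61). Any of the non-neuronal types reached 3 markers in 14 Cartpt-high cells (50.0%, exact 95% interval 30.6 to 69.4%) and 19 Cartpt-low cells (67.9%, 47.6 to 84.1%). Ependymal markers reached that number in 3 and 6 cells, endothelial markers in 1 and 2 cells and mural cell markers in 1 and 1. No microglia marker of the 9 listed is in the table, nor are 5 of 6 markers of oligodendrocyte precursors.

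Astrocyte markers thus moved with the genes that were lower in Cartpt-high cells, and beyond leaving out the marked cells their part in those results was not tested. Without the 33 marked cells, 14 Cartpt-high and 9 Cartpt-low cells remained, with 754 genes higher and 2654 lower by 1 or more. In those cells Adcyap1r1 differed by -1.85, Egr1 by -1.81, Nr3c2 by -1.44, Hsd11b2 by 0.71 and Cox8a by 1.92. Of 11 arcuate hypothalamus markers, listed because of the protocol label, 9 are not in the table. Agrp, found in 15 and 18 cells, differed by -0.03 (0.47), with means of 1.82 ± 1.96 and 1.85 ± 1.72. Pomc, the other one measured and given above, was found in 18 and 12 cells and differed by 1.42 (1.68).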

How the data were processed

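Single tdTomato+ neurons of both diets were sequenced, and the members and gene lists were chosen with earlier results of these data known. Per the submitters' processing notes, the reads went through featureCounts 1.4.6, Picard 2.5.0, SAMtools 0.1.19, HISAT2 2.0.5 and bcl2fastq with GRCm38, tools whose order, settings and treatment of duplicate reads were not given. The authors deposited log2(CPM + 1) values per gene and cell for 12015 lines, each above 0 in at least 5 cells. Of the values above 0, 99.3% lay within 0.0005 of the grid that log2(CPM + 0.2) makes when rounded to steps of 0.01, so levels of abundant genes are known only to that step.

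From the deposited values CPM were computed, and 100% of those up to 20 times the smallest step of a cell were whole multiples of it to 0.1 steps, and each step was read as 1 read. One read stood for 0.16 to 16.1 CPM in the 56 cells, and transcripts under that level can be missed. Lines with repeated names (121) or numbers as names (19), predicted gene models and Cartpt itself were left out, and 10205 genes found in at least 16 of 56 cells remained. The comparison is the mean over Cartpt-high cells minus that over Cartpt-low cells. Cells are not replicates, so no test was run, SD is the spread over cells, and exact (Clopper-Pearson) 95% intervals cover counting error only. The step that computes differences was checked on simulated cells, grouped at random, in which each gene kept its share of reads at every depth. That check covers the arithmetic only. It does not bear on groups of unequal depth or on shares that change with depth. No molecular identifiers are given, so reads are not independent molecules.

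Genes were named by a rule: the 15 highest and 15 lowest differences among genes past 1 in both diets, up to 4 members of each of 24 lists by size, every identity gene, the 10 highest and 10 lowest correlations with Cartpt among genes found in at least 28 cells, and members of 12 marker lists. The alternatives changed the pseudocount (10 or 0.1 CPM), the scale, the filters, the cells or the split, thinned every cell to 50000 reads, or, chosen after seeing the data, added terms for depth and diet, kept the shared range of reads, left out cells without Cartpt or compared genes of equal level and length. Computation used Python 3.11.15 with numpy 2.4.6, pandas 2.3.3 and scipy 1.17.1. Some genes are counted in their lists but not reported here by name.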

Additional observations from a re-analysis of the deposited data

Results flagged for a closer look

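Cartpt was also found in 8 of the 9 low-sodium cells left out of the comparison (88.9%, exact 95% interval 51.8 to 99.7%), a signal in cells that no comparison here used. Their Cartpt levels ran from 0 to 7.59 log2(CPM + 1), with a median of 5.06, and all 9 lay below the split of 8.17. These cells had 218907 to 697373 reads (median 454516), and their CPM summed to 1393471 to 2170050, so their levels stand on another scale than those of the 56 cells.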

How the results depend on the processing

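No paired analysis was possible because the replicate numbers only name cells. Beside the 121 genes higher and 2446 lower by 1 or more, a pseudocount of 10 CPM gave 51 and 292 and one of 0.1 CPM gave 219 and 4328. The log2 ratio of mean CPM plus 1 gave 211 and 1167, chow cells gave 333 and 2011, low-sodium cells 448 and 4298, and a split at 100 CPM of Cartpt (45 and 11 cells) 454 and 1311. Genes higher numbered 255 after thinning, 201 over all 65 cells, 206 between the 18 cells at either end, 754 without marked cells, 549 with the depth and diet terms and 320 in the shared range of reads. Set against genes of equal level the counts were 628 higher and 513 lower, and of equal level and length 529 and 477. The depth and diet terms in the 23 unmarked cells gave 2496 higher and 2185 lower and a median of 0.11. Size factors, the other gene filters, the mean of both diets and splits within each diet kept both counts within 1.5 times.

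Over 112 named genes and up to 22 settings (2445 values), a difference past 1 turned its sign in 24, and the cause was not tested. With the terms in the 23 unmarked cells these were -0.37 for Lrrc20, 0.10 for Sfxn5, 1.85 for Prlr, 0.95 for Grp, 0.026 for Pde10a, 3.11 for Dusp1, 0.58 for Hoxb3, 0.23 for Cacna1e, 1.53 for Cacna1b, 0.24 for Unc80, 0.68 for Trpm7, 0.41 for Gabra5, 2.22 for Igf1r, 1.63 for Pdia4 and 0.35 for Insig2. With the split at 100 CPM they were 0.64 for Dusp1, 0.40 for Atf3, 0.24 for Btg2, 0.50 for Gabra5 and 0.032 for Slc1a3. Low-sodium cells gave -0.11 for Gal and 0.12 for Grp, unmarked cells 0.21 for Cacng2 and the ratio of means 0.70 for Vgf. List medians of oxidative phosphorylation, glycolysis, ribosomal protein and pan-neuronal genes lay above the median of all genes under 22 of 22 settings. So did those of the HSD2 identity, transmitter identity, vesicle release and heat shock lists and of the 2 measured arcuate markers. Those of calcium channels, potassium channels and adhesion genes lay below it under 22 of 22. A transcript near 1 read per cell can be missed in shallow cells, which are mostly Cartpt-high.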

Other observations

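Gad1 and Gad2, which make GABA, were found in too few cells for the limit of 16. Gad1 was found in 3 of 28 Cartpt-high cells (10.7%, exact 95% interval 2.27 to 28.2%) and in 9 of 28 Cartpt-low cells (32.1%, 15.9 to 52.4%). Gad2 was found in 2 Cartpt-high cells (7.14%, 0.877 to 23.5%) and in 11 Cartpt-low cells (39.3%, 21.5 to 59.4%). The intervals overlap, the Cartpt-low cells had more reads, and the difference was not tested. These are the 2 of 4 listed GABA and glycine neuron markers in the table. Chat and Slc18a3, the cholinergic markers in the table, were each found in 3 Cartpt-high and 7 Cartpt-low cells. Acta2, the actin of smooth muscle, was found in 10 Cartpt-high and 2 Cartpt-low cells. It is 1 of 4 pericyte and smooth muscle markers measured, and summed over all 4, 13 cells of each group were at 0.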
